A study of Rattus norvegicus with 12 samples.

Results

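BMP and activin signalling genes were examined in primary rat atrial fibroblasts as a set of 9 genes taken by symbol from a table of 22850 features. The set holds the ligand genes Inhba, Bmp2 and Bmp4, the secreted antagonist gene Grem1, the target genes Id1, Id2 and Id3, and the inhibitory SMAD genes Smad6 and Smad7, all of which were found under identifiers such as gene-Inhba. A further list of 62 genes of the same pathways was fixed as ligands, receptors, co-receptors, antagonists, SMADs, their regulators and targets. The fibroblasts came from atria of 1- to 3-day-old Sprague-Dawley rats by differential adhesion, which enriches fibroblasts by how they attach and does not sort them. All cells received angiotensin II (AngII, 1 μmol/L) for 48 h in medium with 2% serum. The AngII group received nothing else, the AngII+HNG group was also given (Gly14)-humanin (HNG, 10 μmol/L), a synthetic humanin analogue, and the AngII+MOTS-c group was also given MOTS-c (5 μmol/L), another peptide encoded in mitochondrial DNA. Each peptide was added 1 h before AngII. Each group held 4 libraries, and no group without AngII was analysed here, so the values compare AngII with and without a peptide. Sequencing gave 27960586 to 38322354 counts per library. Marker sums of the 12 libraries were dominated by the fibroblast list (13370 to 14930 FPKM, fragments scaled to gene length and library total), while atrial myocyte markers summed to 4042 to 5360 FPKM, so myocyte transcripts were abundant in all groups.

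BMPs and activins are dimeric ligands of the TGF-β family. They bind type II and type I receptor kinases, BMPs leading to phosphorylation of SMAD1, SMAD5 and SMAD9 and activins to that of SMAD2 and SMAD3, which enter the nucleus with SMAD4. ID genes are direct BMP-SMAD targets whose products bind E proteins and block their DNA binding, SMAD6 and SMAD7 are induced as feedback inhibitors, and secreted antagonists such as Gremlin-1, Chordin and Noggin hold BMPs away from their receptors. In cardiac fibroblasts activin A is known as a profibrotic ligand.

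Promoter windows of the genes that rose with HNG are shown as a description, because these genes moved in the same direction. The RefSeq table (build GRCr8) held a window for 7 of the 9 genes. Bmp2, Smad6 and the pathway gene Smurf1 had no entry. Each line gives bases upstream of the annotated start, 5′ to 3′, and capitals mark GGCGCC, a GC-rich motif of BMP-responsive elements, and TATAAA, the TATA box. The run of Id1 stops after 211 bases, where the annotated gene begins, and the other runs hold 250 bases.
Id1, chr3:161671314-161671524, + strand: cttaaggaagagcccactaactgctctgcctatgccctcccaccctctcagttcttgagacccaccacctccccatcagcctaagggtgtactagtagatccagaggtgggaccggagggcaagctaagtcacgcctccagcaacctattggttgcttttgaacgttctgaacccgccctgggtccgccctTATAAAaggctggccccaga
Grem1, chr3:120978320-120978569, - strand: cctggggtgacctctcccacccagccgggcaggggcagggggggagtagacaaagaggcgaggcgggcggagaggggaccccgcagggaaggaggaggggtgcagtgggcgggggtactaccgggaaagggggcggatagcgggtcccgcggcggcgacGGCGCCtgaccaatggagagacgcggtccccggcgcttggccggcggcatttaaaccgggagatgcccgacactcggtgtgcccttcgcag
Smad9, chr2:141106418-141106667, + strand: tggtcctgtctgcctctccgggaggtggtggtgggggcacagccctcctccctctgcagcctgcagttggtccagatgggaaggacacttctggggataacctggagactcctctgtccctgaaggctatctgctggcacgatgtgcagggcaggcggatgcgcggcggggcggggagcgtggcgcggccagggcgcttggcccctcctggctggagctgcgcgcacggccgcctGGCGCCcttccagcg
Nbl1, chr5:156613183-156613432, - strand: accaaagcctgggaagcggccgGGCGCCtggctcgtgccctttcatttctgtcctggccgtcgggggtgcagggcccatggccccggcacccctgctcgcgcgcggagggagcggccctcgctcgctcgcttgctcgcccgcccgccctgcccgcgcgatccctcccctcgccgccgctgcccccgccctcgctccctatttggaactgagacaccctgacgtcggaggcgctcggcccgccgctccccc

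The letters GGCGCC, searched on both strands in the 250 bases before the start that the table uses, were present in 4 of the 7 genes with a window that passed the test with HNG (Grem1, Smad9, Nbl1 and Chrd), against 14 of the 56 windows of the 9 genes and the wider list and 8.69% of all 33469 windows. Among the 9 genes, Grem1 and Smad7 held it. The windows printed above were rich in G and C, from 56.4% in Id1 to 75.6% in Nbl1. The share over all windows was not matched for G and C content. The genes that passed with HNG were picked from these same data, and whether their share differs was not tested. TATAAA was present in 3 of the 7 genes that passed with HNG (Id1, Inhba and Gdf11). It was in 7 of the 56 windows of the 9 genes and the wider list and in 12.9% of all windows. The SMAD core GTCT, on either strand, was present in 6 of the 7 genes, and its share of all windows was 84.0%. GGCGCC followed after 5 bases by GTCT, the composite form, was in none of the windows of the 9 genes or of the wider list and in 0.0418% of all windows. Sequence farther upstream than these 250 bases was not searched, so an element there would not be seen. These matches are descriptions of letters and not of bound sites. The windows of Inhba, Chrd and Gdf11 lay inside their annotated genes and are not printed.

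Levels were compared between genes in FPKM, which is per transcript length. Id3 was the most abundant of the 9 genes with a mean of 241 FPKM over the 12 libraries, followed by Id2 with 80.0 FPKM and Id1 with 38.8 FPKM. The place of Id1 depended on the group: it was above Bmp4 in 7 of the 12 libraries, among them every AngII+HNG library. Bmp4 (36.4 FPKM), Smad6 (31.5 FPKM), Inhba (25.7 FPKM) and Smad7 (23.4 FPKM) formed a middle range. Grem1 (11.0 FPKM) and Bmp2 (1.35 FPKM) were lowest. Across this order, the ranges of neighbours overlapped from Id1 through Bmp4, Smad6 and Inhba to Smad7. Id3 was above Id2, Id2 above Id1, Smad7 above Grem1 and Grem1 above Bmp2 in all 12 libraries, without overlap of the ranges. Bmp2 rested on 51 to 161 counts per library, whereas each of the other genes had at least 985.

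The deposited FPKM values are not a plain function of counts for every gene. The gene length implied by count, total and FPKM was 1596 bases for Id1 in AngII+MOTS-c replicate 1 and a median of 1025 bases over all libraries, so Id1 read 22.0 FPKM there against 32.6 to 39.2 FPKM in the other AngII+MOTS-c libraries, while its normalised count in the same library lay within the group. For Bmp2 in AngII replicate 4 it was 1542 bases against a median of 2529 bases. An implied length that varied over 1.5 times between libraries was found in 232 of 12143 genes with at least 50 counts in each library, or 1.91%. Comparisons between groups were therefore made on counts.

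**Figure D1:**
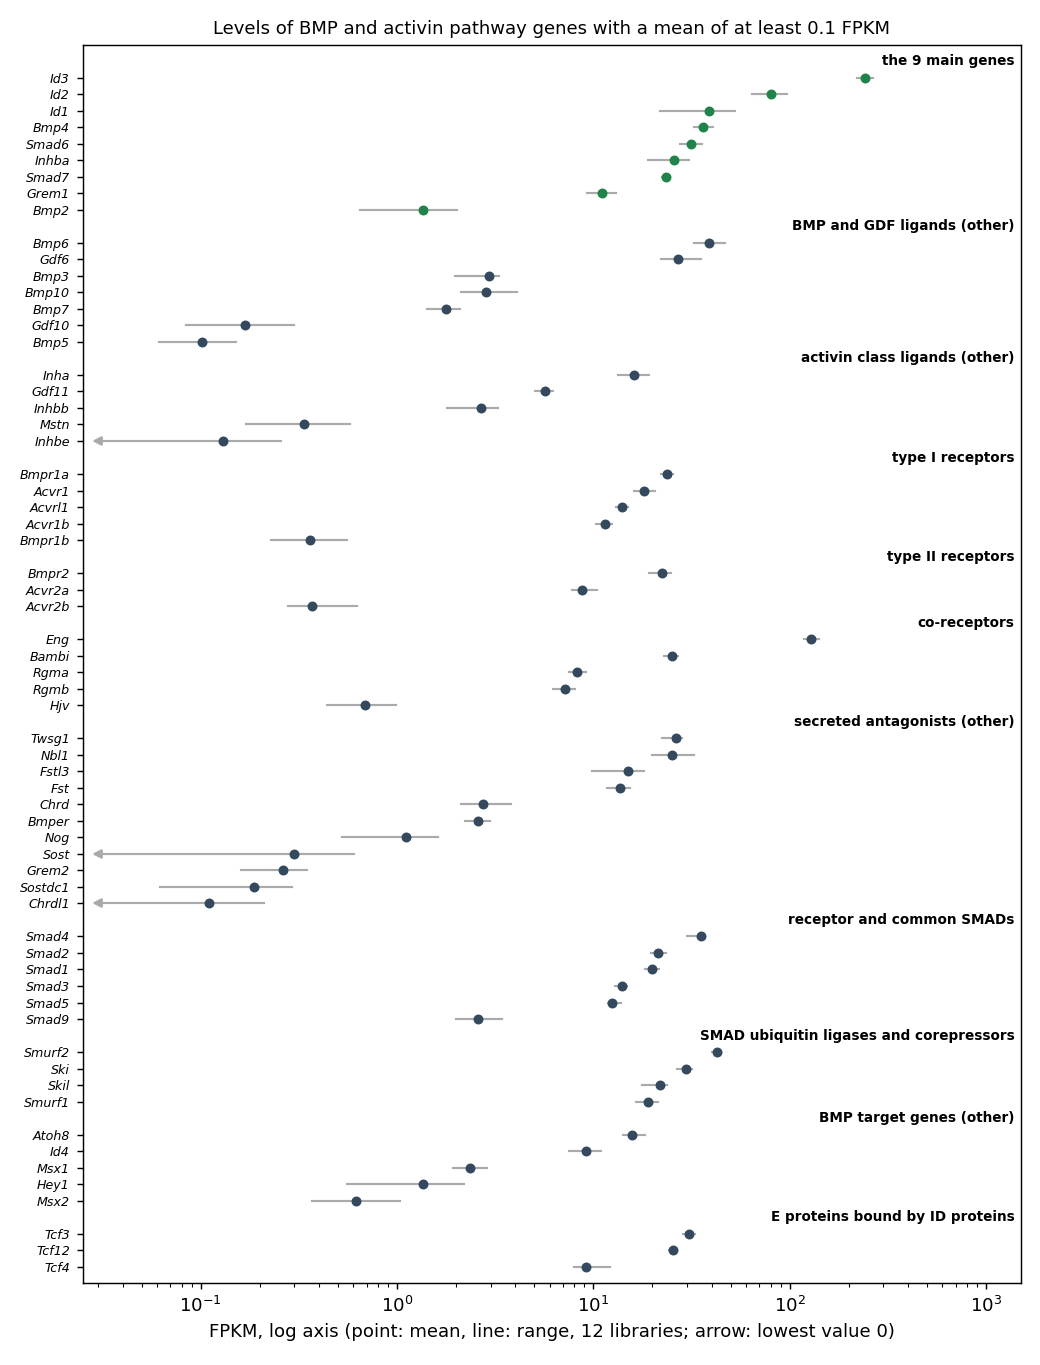
Mean FPKM (points) and the range over the 12 libraries (lines) of pathway genes with a mean of at least 0.1 FPKM, on a log axis and grouped by role, with the 9 main genes in green. Id3 (241 FPKM) and the co-receptor gene Eng (129 FPKM) lie farthest to the right, and Bmp2 (1.35 FPKM) is the lowest of the main genes.

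In each role of the wider list, the gene with the highest mean level was as follows. Bmp6 (38.9 FPKM) led the other BMP and GDF ligands and Inha (16.2 FPKM), the inhibin α subunit, led the list of other activin and inhibin class genes. Among receptors the leaders were Bmpr1a (23.7 FPKM, type I), Bmpr2 (22.4 FPKM, type II) and Eng, encoding endoglin (129 FPKM, co-receptor). Twsg1 (26.5 FPKM) led the antagonists over all libraries, Smad4 (35.5 FPKM) the receptor and common SMADs, Smurf2 (42.7 FPKM) the ubiquitin ligases and corepressors, Atoh8 (15.7 FPKM) the other targets and Tcf3 (30.6 FPKM) the E proteins. With AngII+HNG the antagonist gene Nbl1 (26.5, 29.2, 28.9 and 32.6 FPKM) was above Twsg1 (27.2, 25.9, 22.4 and 28.3 FPKM) in all replicates but the first. Every role therefore had at least 1 gene above 15 FPKM. Gdf2, which encodes BMP9 and was named after its values were seen, had 0 counts in all 12 libraries, where 3 counts would have been 0.0787 to 0.107 CPM (normalised counts, each divided by the scaled total of its library).

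To ask how HNG moved these genes under AngII, the AngII+HNG and AngII libraries were compared with edgeR's quasi-likelihood test, and p-values were adjusted by the Benjamini-Hochberg method over all genes tested, with 0.05 as the threshold. Of the 9 genes, 3 passed: the target Id1 and the antagonist Grem1 rose, and the activin subunit Inhba fell. Over all 14524 genes tested, 5.98% passed, 3.4% in the higher and 2.58% in the lower direction, so 3 of 9 compares with that share. The 869 genes behind it were 431 without AngII replicate 1, 485 without AngII replicate 2, 512 without AngII replicate 3 and 1192 with DESeq2, while 2 of the 9 genes passed without AngII replicate 1 or 2, and 3 passed in the other fits named here. The median log2 fold change was 0.12 over the 9 genes and 0.0043 over all genes tested. In 4 of the 9 genes (Id1, Grem1, Inhba and Id3) the 4 values of one group did not overlap those of the other, a separation seen in 13.6% of all genes tested. The 9 genes were chosen with earlier results of these data known. Replicates are separate libraries, and the p-values measure the spread between them. In bulk RNA, more cells of a type and more RNA per cell cannot be told apart.

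Inhba encodes the βA chain, which pairs with itself to form activin A. Its normalised counts were 193, 183, 175 and 166 CPM in AngII replicates 1 to 4. In the AngII+HNG libraries Inhba was 162, 149, 128 and 121 CPM. In the AngII+MOTS-c libraries it was 166, 169, 174 and 142 CPM. All 4 AngII+HNG values lay below all 4 AngII values, while the AngII+MOTS-c values overlapped both groups, and replicate 4 was the lowest of every group. The means were 179 ± 11.3 CPM with AngII and 140 ± 18.5 CPM with AngII+HNG (SD, n = 4 each). With HNG the log2 fold change of Inhba was −0.35 (SE 0.079, 95% interval −0.52 to −0.18), a fall of the level to 0.783 of the AngII level, with an edgeR adjusted p = 0.0188. This call was lost without AngII replicate 1 (adjusted p = 0.076) or AngII replicate 2 (adjusted p = 0.0634), with replicates 2 and 3 summed because their library names share a number (adjusted p = 0.0525), and in limma on FPKM (adjusted p = 0.0719 with a pseudocount of 1 and 0.0671 with 0.1).

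The BMP ligand genes did not pass. Bmp4 had means of 77.2 ± 5.73 CPM with AngII and 75.1 ± 6.88 CPM with AngII+HNG, and its log2 fold change was −0.037 (95% interval −0.18 to 0.11, edgeR adjusted p = 0.828). The noncoding RNA gene LOC134481955 overlaps Bmp4 in the RefSeq table, and reads of the overlap cannot be assigned without knowing whether strand was used. The interval leaves room for a fall of 0.18 or a rise of 0.11 on the log2 scale. Bmp2 was 4.23, 2.83, 3.62 and 1.39 CPM in the AngII libraries and 3.88, 3.38, 3.63 and 3.49 CPM in the AngII+HNG libraries. The AngII values spread more widely and enclosed those with HNG, and the interval of the Bmp2 difference ran from −0.28 to 0.79 on the log2 scale (edgeR adjusted p = 0.635). A change of Bmp2 within these bounds was not detectable with these libraries.

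Grem1 encodes Gremlin-1, a secreted antagonist that binds BMP2 and BMP4. It was 40.9, 43.7, 41.4 and 42.4 CPM in the AngII libraries and 49.9, 49.5, 47.3 and 51.7 CPM in the AngII+HNG libraries. In the AngII+MOTS-c libraries Grem1 was 39.1, 38.4, 45.6 and 37.4 CPM. The AngII+HNG values were above those of both other groups in every library. Between AngII+HNG and AngII the log2 fold change of Grem1 was 0.24 (SE 0.046, 95% interval 0.14 to 0.34), a level 1.18 times that with AngII, with an edgeR adjusted p = 0.00853.

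Id1, a BMP-SMAD target, showed the largest change of the 9 genes by log2 fold change in this comparison. Its values were 34.6, 37.4, 35.2 and 41.2 CPM in the AngII libraries. With AngII+HNG, Id1 was 46.5, 54.0, 47.3 and 45.7 CPM, and with AngII+MOTS-c it was 35.1, 40.4, 34.5 and 39.1 CPM. Again the lowest AngII+HNG library exceeded the highest library of each other group. The log2 fold change of Id1 with HNG was 0.39 (SE 0.069, 95% interval 0.24 to 0.53), or 1.31 times the AngII level, with an edgeR adjusted p = 0.00583. A long noncoding RNA gene, LOC134486187, overlaps Id1 in the RefSeq table, and whether the counting used strand is not given in the sources used here, so reads of the overlap cannot be assigned to one of them.

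The other ID genes lay above AngII on average but did not pass. Id2 was 49.7, 61.1, 56.0 and 66.3 CPM with AngII and 73.7, 72.7, 58.0 and 72.6 CPM with AngII+HNG. AngII+HNG replicate 3 stood apart from the rest of its group and lay within the AngII range. The log2 fold change of Id2 was 0.25 (95% interval 0.056 to 0.45, edgeR adjusted p = 0.134), and without that library it was 0.33 with an adjusted p = 0.0223. Id3 was 226, 234, 225 and 238 CPM with AngII and 241, 248, 255 and 247 CPM with AngII+HNG. These groups did not overlap, yet the difference was small, with a log2 fold change of 0.11 (95% interval 0.025 to 0.19, edgeR adjusted p = 0.127).

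Smad6 and Smad7 encode the inhibitory SMADs, of which SMAD6 acts mainly on BMP signals and SMAD7 on the whole family. Smad6 had means of 96.9 ± 5.35 CPM with AngII and 106 ± 6.41 CPM with AngII+HNG, with overlapping groups and a log2 fold change of 0.12 (95% interval 0.012 to 0.24, edgeR adjusted p = 0.199). Without AngII+HNG replicate 3, which was the lowest of its group at 96.5 CPM, the adjusted p of Smad6 was 0.0475. Smad7 varied least of the 9 genes relative to its level, from 22.4 to 24.4 FPKM over all libraries. Its log2 fold change with HNG was 0.019 (95% interval −0.075 to 0.11, edgeR adjusted p = 0.871).

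**Figure D2:**
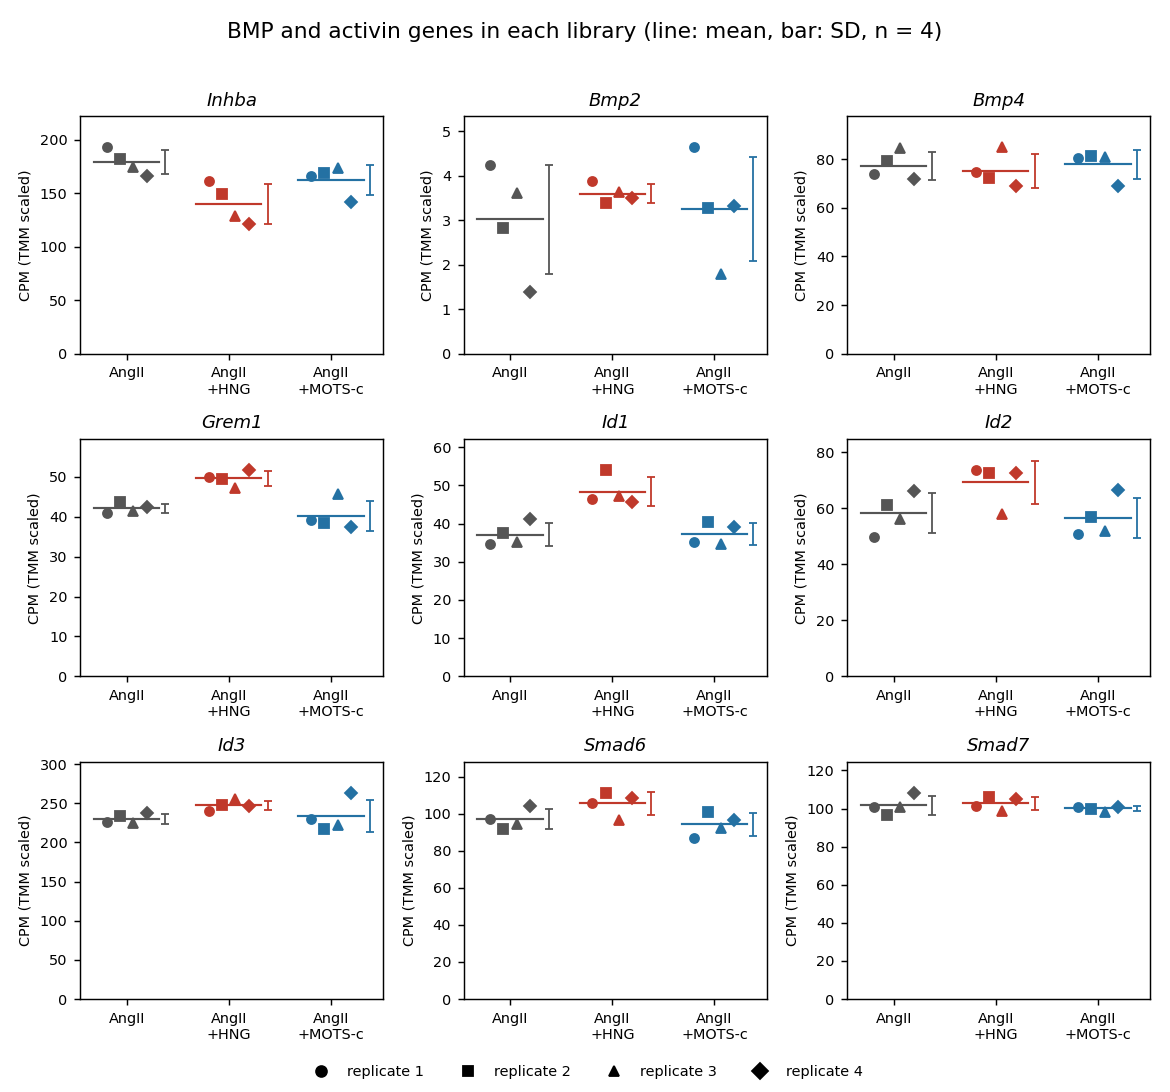
Normalised counts (CPM, linear axes from 0) of the 9 genes in each of the 12 libraries, with the mean as a line and the SD as a bar beside it (n = 4), and a symbol for each replicate number. The 4 AngII+HNG libraries of Id1 (45.7 to 54.0 CPM) and Grem1 (47.3 to 51.7 CPM) lie above all others, and those of Inhba (121 to 162 CPM) lie below all AngII libraries (166 to 193 CPM).

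Some markers of other cells moved with HNG as well. The 7 endothelial markers summed to 20.5 to 22.8 FPKM in the AngII+HNG libraries, to 15.6 to 17.7 FPKM with AngII and to 16.1 to 17.6 FPKM with AngII+MOTS-c. Of these markers Tek, Tie1 and Kdr rose with HNG. Cdh5, Vwf, Pecam1 and Emcn did not pass, with log2 fold changes of 0.25, 0.18, 0.15 and −0.19. The log2 fold change of Tek was 0.40, that of Tie1 0.42 and that of Kdr 0.43, beside 0.39 for Id1, a gene that endothelial cells also express. The macrophage markers summed to 54.7 to 75.2 FPKM with AngII+HNG against 44.2 to 54.2 FPKM with AngII, and Cd68, Mrc1 and Ptprc rose. The other macrophage markers did not pass, with log2 fold changes of 0.17 for Csf1r, 0.10 for C1qa, −0.046 for C1qb and −0.36 for Adgre1, and Cd163 was removed by the filter on low counts. The smooth muscle and pericyte markers summed to 333 to 342 FPKM with AngII+HNG against 375 to 401 FPKM with AngII, and Cnn1, Mcam and Myh11 fell. Rgs5, Cspg4 and Des did not pass and hardly moved, with log2 fold changes of −0.050, −0.0036 and 0.023. No marker of these lists was at 0 in all libraries. The fibroblast sums overlapped (13370 to 14930 FPKM with AngII+HNG and 13500 to 14280 FPKM with AngII), with 2 of the 10 markers, Thy1 and Tcf21, higher. The myocyte sums overlapped too (4433 to 5360 FPKM and 4511 to 4840 FPKM), with 1 of the 8 markers, Tnni3, higher. Of the 5 epicardial and mesothelial markers Upk1b rose, with sums that overlapped (18.7 to 22.7 FPKM with AngII+HNG and 17.7 to 21.5 FPKM with AngII), and the Schwann cell markers summed to at most 3.78 FPKM in any library. The part of these other cell types in the changes of the BMP and activin genes was not tested.

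**Figure D3:**
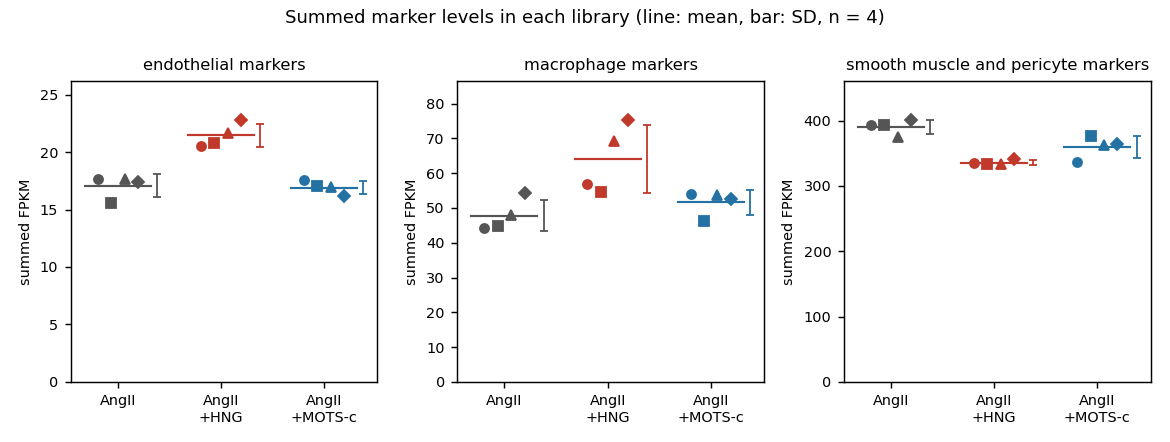
Summed FPKM of the endothelial, macrophage and smooth muscle and pericyte markers in each library (points, linear axes from 0), with the mean as a line and the SD as a bar (n = 4). With AngII+HNG the endothelial sums (20.5 to 22.8 FPKM) and macrophage sums (54.7 to 75.2 FPKM) lie above those of AngII, and the smooth muscle and pericyte sums (333 to 342 FPKM) lie below.

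Of the 62 listed pathway genes, 52 passed the filter on low counts in this comparison, and 5 of these passed the test with HNG, 3 higher and 2 lower. The other 10 had at most 15 counts in any library. The median log2 fold change of the 52 tested genes was −0.026, close to the 0.0043 over all genes tested, and 5 of 52 is to be read beside the 5.98% of all genes.

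Among the other secreted antagonists, 2 of the 10 tested rose, where 3.4% of all genes tested passed in the higher direction. Chrd, which encodes the BMP antagonist Chordin, was 8.57, 8.11, 9.49 and 8.27 CPM with AngII and 10.7, 12.2, 11.6 and 13.0 CPM with AngII+HNG. These groups did not overlap, and the log2 fold change of Chrd was 0.47 (SE 0.087, edgeR adjusted p = 0.00746). Nbl1, an antagonist of the DAN family to which Gremlin also belongs, was 44.9, 42.6, 41.3 and 49.2 CPM with AngII and 49.0, 54.0, 53.1 and 60.1 CPM with AngII+HNG. Here AngII replicate 4 lay just above the lowest AngII+HNG library, and the log2 fold change was 0.28 (SE 0.069, edgeR adjusted p = 0.0286). In all, 7 of the 10 had an unadjusted p below 0.05 in edgeR, in both directions, beside 2943 of 14524 genes over all. Among the 5 of these that did not pass after adjustment, chosen once their values were seen, the BMP-binding Chrdl1 had a log2 fold change of 1.03 (edgeR adjusted p = 0.0845), Nog one of 0.57 (edgeR adjusted p = 0.176) and Bmper one of −0.27 (edgeR adjusted p = 0.0868). Chrdl1 rested on few counts, 22, 7, 9 and 18 with AngII and 18, 35, 28 and 27 with AngII+HNG (95% interval 0.34 to 1.73). Nog had 34 to 105 counts per library. The activin-binding antagonists Fst and Fstl3 had log2 fold changes of −0.21 (edgeR adjusted p = 0.0635) and −0.39 (edgeR adjusted p = 0.0645). Both activin-binding genes had lower values in all AngII+HNG libraries than in any AngII library.

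One of the 6 receptor and common SMAD genes rose. Smad9, encoding the third BMP receptor SMAD, was 13.1, 14.1, 11.2 and 13.8 CPM with AngII and 18.3, 19.0, 15.9 and 18.1 CPM with AngII+HNG. Its groups did not overlap, and its log2 fold change was 0.45 (SE 0.083, edgeR adjusted p = 0.00713). At a mean of 2.59 FPKM it was the lowest of the SMAD genes of this list. The other 5, Smad1 to Smad5, did not pass.

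Smurf1 fell among the 4 ubiquitin ligases and corepressors. It encodes a ligase that marks BMP SMADs for degradation. Smurf1 was 117, 111, 113 and 104 CPM with AngII and 95.1, 94.8, 98.0 and 92.2 CPM with AngII+HNG. All AngII+HNG libraries were lower, and the log2 fold change was −0.23 (SE 0.043, edgeR adjusted p = 0.00845). The activin class ligand gene Gdf11 was 24.5, 26.3, 23.1 and 26.6 CPM with AngII and 22.6, 21.2, 21.1 and 21.0 CPM with AngII+HNG, without overlap. Its log2 fold change was −0.23 (SE 0.059, edgeR adjusted p = 0.0422).

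None of the 7 other BMP and GDF ligands, 5 type I receptors, 3 type II receptors, 5 co-receptors, 5 other targets and 3 E proteins tested passed in edgeR with HNG. At an unadjusted p below 0.05 there were 2 of the ligands, 1 type I receptor, 2 of the targets and 0 of the type II receptors, co-receptors and E proteins, beside 2943 of 14524 genes over all. Atoh8, the most abundant of the other targets, had a log2 fold change of 0.16 (edgeR adjusted p = 0.175). Chrd, Smad9 and Smurf1 passed under each omission of a single library from this comparison. Gdf11 and Nbl1 both lost their call without AngII replicate 1, AngII replicate 2, AngII+HNG replicate 2 or AngII+HNG replicate 4, which left 3 genes called. Gdf11 also lost it without AngII replicate 4 or AngII+HNG replicate 3, and Nbl1 without AngII replicate 3.

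**Figure D4:**
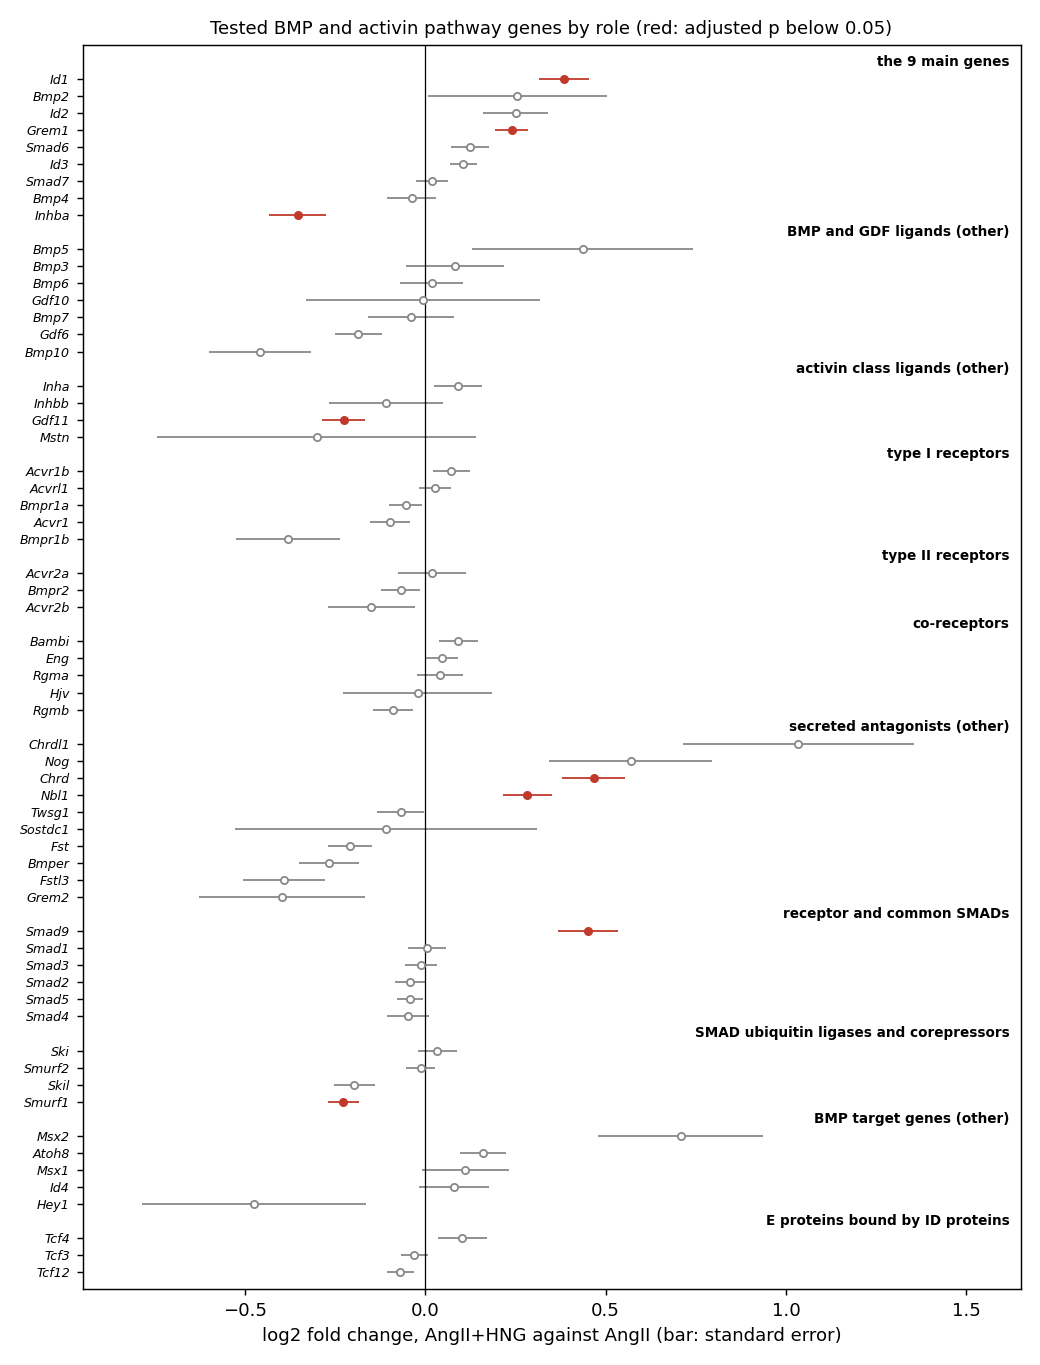
Log2 fold change between AngII+HNG and AngII (points) with its standard error (bars) for the 9 main genes and the 52 tested pathway genes, grouped by role. Red points passed at an adjusted p below 0.05: Id1, Grem1, Chrd, Nbl1 and Smad9 lie to the right of 0, and Inhba, Gdf11 and Smurf1 to the left.

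MOTS-c was compared with AngII in the same way, using the same 4 AngII libraries. None of the 9 genes passed in edgeR, and DESeq2 and limma on FPKM called none either. In this comparison 1 of 14488 genes passed, or 0.0069%. Inhba was the only one of the 9 genes with an unadjusted p below 0.05, as had 732 of 14488 genes over all, with 163 ± 14.0 CPM against 179 ± 11.3 CPM and a log2 fold change of −0.14 (95% interval −0.26 to −0.011, edgeR adjusted p = 0.924). The log2 fold change of Grem1 was −0.069 (95% interval −0.19 to 0.056), that of Id1 0.0087 (95% interval −0.13 to 0.15) and that of Smad7 −0.023 (95% interval −0.10 to 0.055). In this fit the interval of Id1 reached no farther than 0.15 on the log2 scale in either direction, and that of Bmp2 was wide, from −0.54 to 0.78. The limma fits on FPKM, which hold the low Id1 value of AngII+MOTS-c replicate 1, put Id1 outside its interval. No group of the 9 genes separated without overlap, against 3.44% of all genes tested. Of the 52 tested pathway genes, 0 passed in edgeR or DESeq2 and 0 had an unadjusted p below 0.05, again beside 732 of 14488 genes.

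To ask whether the peptides differed from each other, AngII+HNG was tested against AngII+MOTS-c directly. The doses were 10 μmol/L and 5 μmol/L, so a difference between the groups is one between these peptides at these doses. Of the 9 genes, 2 passed, both higher with HNG, where 4.41% of 14448 genes passed, 2.64% higher and 1.77% lower. Id1 was 48.4 ± 3.82 CPM with AngII+HNG and 37.3 ± 2.92 CPM with AngII+MOTS-c, a log2 difference of 0.37 (SE 0.068, edgeR adjusted p = 0.00817). Grem1 was 49.6 ± 1.81 CPM with AngII+HNG and 40.2 ± 3.73 CPM with AngII+MOTS-c, a log2 difference of 0.30 (SE 0.063, edgeR adjusted p = 0.0158). Both separated without overlap, as did 12.5% of all genes tested. The Grem1 call was lost without AngII+MOTS-c replicate 1 (adjusted p = 0.0638), without AngII+MOTS-c replicate 2 (adjusted p = 0.0693), without both replicates numbered 4 (adjusted p = 0.104) and with the numbers of the library names as a block, which takes both replicates 1 out of the contrast (adjusted p = 0.0944). The Id1 call was lost in limma on FPKM (adjusted p = 0.099 with a pseudocount of 1 and 0.0939 with 0.1), which holds the low Id1 value of AngII+MOTS-c replicate 1.

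Inhba did not pass between the peptides, with a log2 difference of −0.22 (95% interval −0.40 to −0.034, edgeR adjusted p = 0.18). With the numbers of the library names as a block, where each replicate 1 is alone with its number and so leaves the contrast to the other 6 libraries, the Inhba difference was −0.28 with an adjusted p = 0.0354. Id2 had a log2 difference of 0.29 (95% interval 0.094 to 0.48, edgeR adjusted p = 0.096) and Smad6 of 0.16 (95% interval 0.042 to 0.28, edgeR adjusted p = 0.125). The Id2 difference passed with DESeq2 (adjusted p = 0.0358), without AngII+HNG replicate 3 (adjusted p = 0.0178) and without AngII+MOTS-c replicate 4 (adjusted p = 0.0227), and that of Smad6 without AngII+HNG replicate 3 (adjusted p = 0.0373). The intervals of Id3, Smad7, Bmp4 and Bmp2 all included 0. In the pathway list 5 of 52 genes passed. Smad9 (log2 difference 0.49), Chrd (0.50) and Nbl1 (0.37) were higher with HNG, and Smurf1 (−0.19) and Gdf11 (−0.21) lower. Only Smad9 kept its call under each omission of a single library here, and without AngII+MOTS-c replicate 1 it was the 1 pathway gene called.

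**Figure D5:**
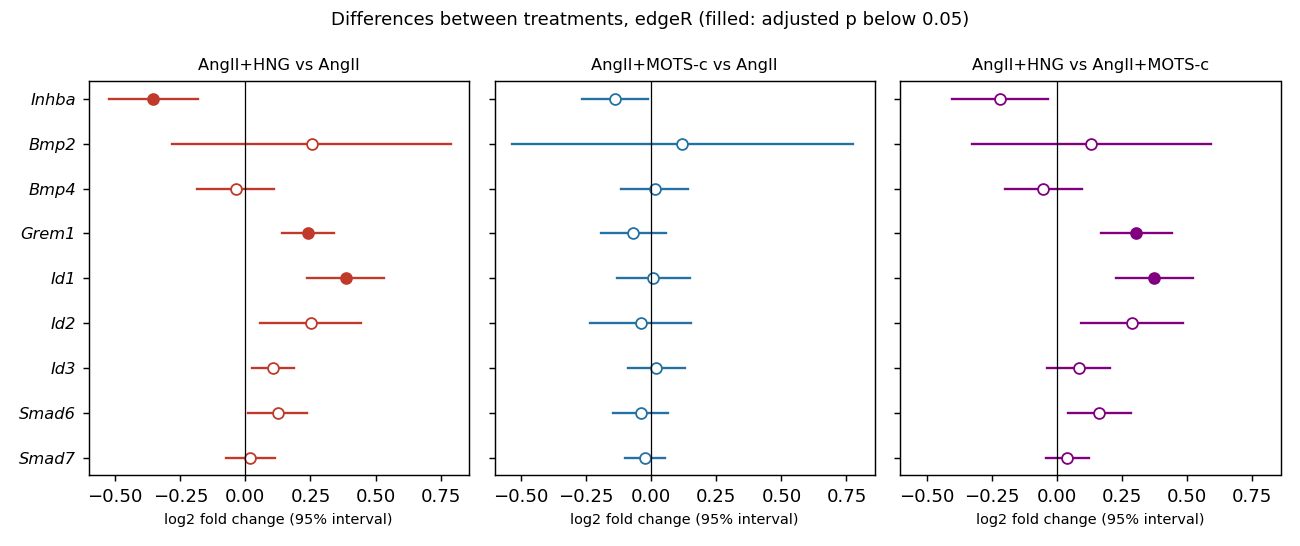
Log2 fold changes of the 9 genes (points) with 95% intervals (lines) in the 3 comparisons, with filled points for an adjusted p below 0.05. Inhba, Grem1 and Id1 are filled for HNG against AngII, none for MOTS-c against AngII, and Grem1 and Id1 for HNG against MOTS-c.

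The genes whose log2 CPM most resembled that of the 3 called genes over the 12 libraries are given as a description, since the libraries share the treatment groups. For Inhba they were Hsd17b12 (r = 0.958), Cited2 (r = 0.947) and Il1rl2 (r = 0.945). For Grem1 they were Cd80 (r = 0.927), Pamr1 (r = 0.918) and Rftn1 (r = 0.917), and for Id1 they were Tacc2 (r = 0.956), Gpd2 (r = 0.937) and Fgfr2 (r = 0.932). Within the set, Id1 was most like Smad6 (r = 0.806) and Id2 (r = 0.789), followed by Grem1 (r = 0.671) and Id3 (r = 0.606). Inhba ran opposite to Id3 (r = −0.767) and Id1 (r = −0.671).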

How the data were processed

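The deposited table holds unnormalized whole read counts for each gene, which the authors obtained from mRNA libraries read from both ends on a DNBSEQ instrument. The authors' second table gives FPKM, scaled by gene length and library total, used here for levels between genes and in limma only. The submitters' processing notes name HISAT2, Picard 1.41 and SAMtools 0.1.18. The build, the counting tool and whether it used strand are not given in the sources used here.

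Groups came from the sample titles. Counts were filtered with filterByExpr, scaled by TMM and tested with glmQLFit and glmQLFTest of edgeR 4.0.16 in R 4.3.3, each comparison on its own 8 libraries, with Benjamini-Hochberg adjustment over all genes tested. Standard errors came from the F statistic. CPM values were TMM-scaled over 12 libraries. Likeness used log2 CPM with a prior count of 2. The script was tested on simulated counts. Alternatives were DESeq2 1.42.0, RLE size factors, no filter, all 12 libraries in one fit, blocks, replicates 2 and 3 summed, limma 3.58.1 on log2(FPKM + 1) or log2(FPKM + 0.1), and omissions of libraries.

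The 9 genes and the lists were chosen with earlier results of these data known. Named genes are the 9 genes, pathway genes with an adjusted p below 0.05 in any comparison, the gene with the highest mean FPKM in each list, and the 3 genes most correlated with each called gene at a mean of at least 1 CPM. Chrdl1, Nog, Bmper, Fst, Fstl3 and Gdf2 fall outside this rule and were chosen once their values were seen, and marker genes come from the marker lists. Floors of 3 counts cover counting error only. Depth was at least 27960586 counts per library. Whether libraries of different groups came from the same cell preparation is not stated.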

Additional observations from a re-analysis of the deposited data

Results flagged for a closer look

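In 3 of 42 groups of 4 libraries examined, 1 library stood apart from the other three by Dixon's test at the 95% level, and chance alone gives about 1 in 20. Bmp4 was 68.98 CPM in AngII+MOTS-c replicate 4, below the rest of its group, with a gap of 0.91 of the group's range. Replicate 4 was also the lowest for Bmp4 with AngII (71.6 CPM) and with AngII+HNG (68.8 CPM). Id2 was 57.98 CPM in AngII+HNG replicate 3, also below the rest, with a gap of 0.93 of the range. Gdf11 was 22.62 CPM in AngII+HNG replicate 1, above the rest, with a gap of 0.872 of the range.

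The difference between the peptides, tested directly with edgeR between AngII+HNG and AngII+MOTS-c, passed for 7 of the genes described. The log2 differences were 0.3741 for Id1, 0.3049 for Grem1, 0.4906 for Smad9, 0.4963 for Chrd and 0.3654 for Nbl1, all higher with HNG, and −0.189 for Smurf1 and −0.2114 for Gdf11, both lower. Their edgeR adjusted p-values ran from 0.00597 for Smad9 to 0.0458 for Gdf11, and the doses of the peptides differed. Grem1, Chrd, Nbl1, Smurf1 and Gdf11 each lost the call when some single library was left out, and Id1 lost it in limma on FPKM.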

How the results depend on the processing

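With HNG against AngII, Id1 and Grem1 passed in each of the 18 alternatives run, and Inhba in 13 of them. Between 2 and 5 of the 9 genes, 3 and 7 pathway genes and 431 and 932 of all genes passed when 1 library was left out. DESeq2 called 8 pathway genes and 1192 of all genes. The sum of replicates 2 and 3 gave 577 of all genes, and the omission of both replicates numbered 4, chosen after the data were seen, gave 3 pathway genes and 541 of all genes. With MOTS-c against AngII the count of all genes was 4 with DESeq2, 0 with all 12 libraries in one fit, 0 with replicates 2 and 3 summed, 0 without replicates 4 and 0 to 3 when 1 library was left out. Between the peptides, 1 to 4 of the 9 genes, 1 to 5 pathway genes and 322 to 625 of all genes passed when 1 library was left out. DESeq2 gave 1034 and one fit of all libraries 975 of all genes, limma on FPKM called 1 of the 9 genes with either pseudocount, and without replicates 4 there were 1 of the 9 genes, 2 pathway genes and 377 of all genes. Id1 lost its call between the peptides in limma on FPKM (adjusted p = 0.099 and 0.0939), where its FPKM in AngII+MOTS-c replicate 1 departs from its count.

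Libraries of the same replicate number were not treated as pairs, since their deviations did not correlate above 0.1 for every number in any comparison. The correlations ran from −0.0276 to 0.119 (HNG and AngII), 0.0202 to 0.134 (MOTS-c and AngII) and −0.00958 to 0.245 (HNG and MOTS-c). Each number correlated best with itself for 1, 3 and 3 of the 4 numbers in these comparisons, a hint from the data and not from the design. A replicate block, added to the fit as a term, gave 1111 genes with HNG, of which 829 were shared with the unblocked 869, with 3 of the 9 genes and 9 pathway genes among them. Under the block 2 genes passed for MOTS-c. Between the peptides 1054 genes passed, with 5 of the 9 genes (Grem1, Id1, Id2 with an adjusted p = 0.016, Inhba with 0.0295 and Smad6 with 0.0417) and 5 pathway genes. Blocking on the numbers of the library names instead, where each replicate 1 is alone with its number and drops out of the contrast, Grem1 lost its call between the peptides (adjusted p = 0.0944) and Inhba gained one (adjusted p = 0.0354).

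Signs changed only among differences that did not pass. When 1 library was left out, the log2 fold change with HNG ran from −0.0071 to 0.049 for Smad7 and from −0.102 to 0.0053 for Bmp4. With MOTS-c it ran from −0.023 to 0.066 for Bmp4, −0.033 to 0.063 for Id1, −0.123 to 0.332 for Bmp2, −0.128 to 0.027 for Id2, −0.046 to 0.0084 for Smad7 and −0.043 to 0.053 for Id3. Between the peptides Bmp2 ran from −0.067 to 0.345. With MOTS-c the sign also turned for Bmp4 under the library name block (−0.026, which also leaves out both replicates 1), for Id1 in limma on FPKM (−0.151 and −0.156), for Bmp2 in limma with a pseudocount of 0.1 (−0.0049) and, without replicates 4, for Bmp2 (−0.126), Id3 (−0.027) and Smad7 (0.0047). Apart from Id1 in limma, the cause of these shifts was not tested. Bmp2, at 51 to 161 counts, was the gene most limited by depth.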
